A study of Mus musculus with 43 samples.

Results

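Lymph nodes that drain the tumour were compared with nodes that do not, in 12 sgRNA libraries of transferred CD8+ T cells, 6 from draining and 6 from nondraining lymph nodes. They were chosen by their labels alone from the 43 samples of a multi-organ CRISPR screen, of which 41 carry values. Each node was sampled under rat IgG and under anti-PD-1, with 3 libraries in each of the 4 groups (draining IgG, draining anti-PD-1, nondraining IgG and nondraining anti-PD-1). The donor cells of every group were CD90.1+ OT-I T cells with a Cas9 knock-in, from Rag2/OT-I mice crossed to Rosa26-Cas9 mice on a C57BL/6J background, and carried a lentiviral metabolic knockout library. The recipients were Rosa26-Cas9 mice between 6 and 12 weeks of age with an orthotopic KPC_OVA tumour, a mouse pancreatic cancer line made to express ovalbumin. Antibody at 10 mg/kg was given by intraperitoneal injection every 2 days from the day of transfer (ACT), and cells were sorted 7 days after ACT. The donor cells had been activated with beads and expanded with cytokines in culture before transfer. The OT-I receptor recognizes an ovalbumin peptide, so the carriers of all sgRNAs shared 1 antigen specificity.

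A naive or memory T cell enters a lymph node from the blood, scans dendritic cells, and either leaves through the efferent lymph or stays to divide when it meets its antigen. Entry through high endothelial venules depends on L-selectin and its carbohydrate ligands, and exit follows a sphingosine-1-phosphate gradient. Nodes that drain a tumour receive its antigen and its dendritic cells, whereas distant nodes are reached mainly through recirculation. In a pooled knockout screen each sgRNA is a heritable label: an sgRNA is read from the genomic DNA of a node when enough cells that carry it were present there.

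The library targets 2078 metabolic genes with 5 sgRNAs each and holds 250 nontargeting sgRNAs, 10640 sgRNAs in all. A value in the processed table is a normalized signal per sgRNA and library, and the read depth behind it is unknown, so no counting interval is given. Outside draining replicate 3, most sgRNAs of a node library lie at a lowest value that the libraries of the same replicate number share. In draining replicate 3, 49.8% of sgRNAs under IgG and 50.0% under anti-PD-1 lay above the lowest value. At replicate numbers 1, 2 and 3, a lowest value was shared for 97.6%, 96.6% and 72.9% of sgRNAs. The median of these shared values was 1.17, 0.64 and 0. An sgRNA was called detected in a library when its value lay above that shared lowest value, and a second readout counted values above 100. The lowest value of an sgRNA at a replicate number counted as not detected also where only 1 library held it. There were 3111 such values in the 12 libraries, of which 2053 were 0 and 16 exceeded 100. For levels, the mean log2(value + 1) of a gene's 5 sgRNAs was taken, less the mean of the nontargeting sgRNAs in that library. A gene with no detected sgRNA does not sit at 1 fixed level on that scale. The 9 genes that were never detected in these libraries had medians between -3.82 and -1.99 in draining libraries and between -3.83 and -1.14 in nondraining libraries. The centring alone gave each of these 9 genes a draining minus nondraining difference of -0.63, and detected sgRNAs are therefore given beside every log2 value. The sorted cells' identity could not be checked against marker genes, because sgRNA libraries hold no transcripts. Samples are labelled biological replicates, but the number of mice and of sorted cells behind a library is not given in the sources used here, so p-values measure the spread between these libraries. Fewer recovered cells and a loss of the cells that carried an sgRNA cannot be told apart in such data.

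The libraries of replicate 3 stood apart. They held 3334 to 5318 detected sgRNAs, against 761 to 2331 in the libraries of replicates 1 and 2. Part of the extra sgRNAs had low values, above the shared lowest but at most 100, and these fell on the sgRNAs of particular other libraries. Of the 902 low-value sgRNAs of nondraining IgG replicate 3, 87.4% were above 100 in nondraining IgG replicate 2, a library in which 12.8% of all sgRNAs were above 100. Of the 956 of nondraining anti-PD-1 replicate 3, 68.1% were above 100 in nondraining anti-PD-1 replicate 2, against 11.95% of all sgRNAs. The 1542 low-value sgRNAs of draining anti-PD-1 replicate 3 were above 100 in draining anti-PD-1 replicate 2 or nondraining anti-PD-1 replicate 1 in 89.2% of cases, against 24.8% of all sgRNAs. For draining IgG replicate 3 the pair was nondraining IgG replicate 1 and draining IgG replicate 2, which together held 88.6% of its 1706 low-value sgRNAs and 26.9% of all sgRNAs. The same was seen outside replicate 3, where 87.7% of the 350 low-value sgRNAs of nondraining IgG replicate 2 were above 100 in draining anti-PD-1 replicate 2, against 21.0% of all sgRNAs. Low values thus link libraries of the 2 nodes in some of these cases, and the source of the overlap was not tested. Counts are therefore also given for values above 100 and for replicates 1 and 2 alone.

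**Figure D1:**
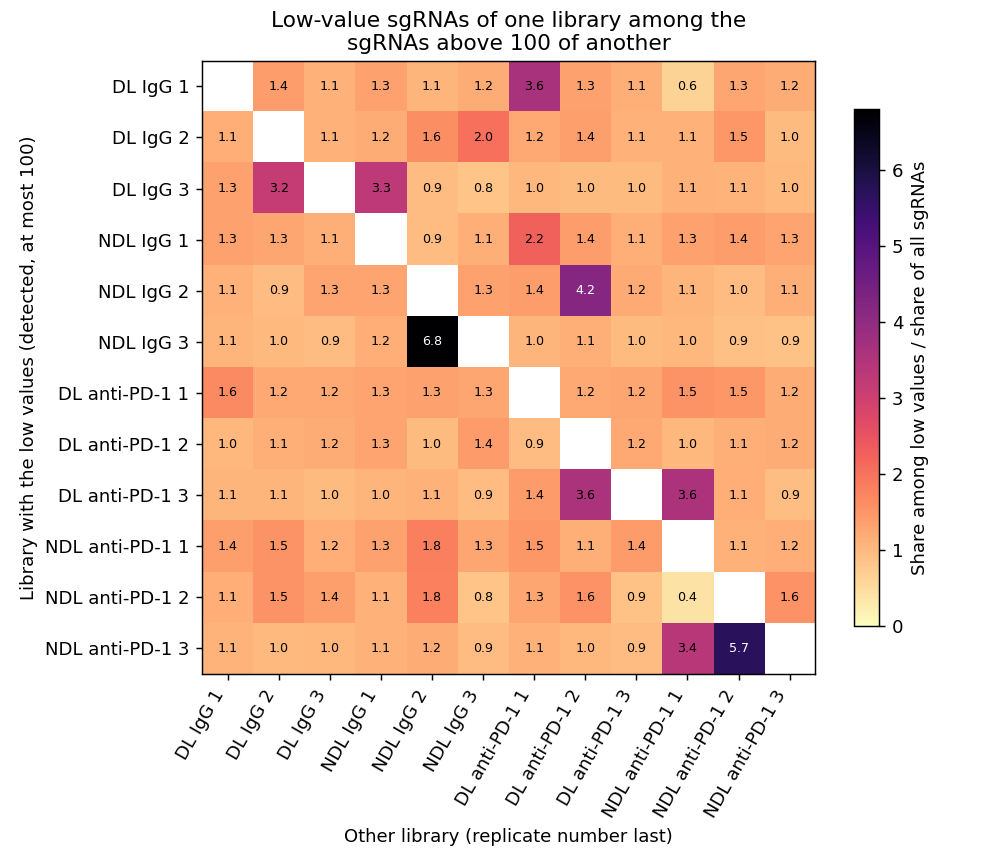
Each row is a node library and takes its low-value sgRNAs (detected, value at most 100), and each column is another library (DL, draining; NDL, nondraining; replicate number last). The number is the share of those sgRNAs that were above 100 in the other library, divided by the share of all sgRNAs that were, so that 1 means no excess. The highest ratio is 6.8, for nondraining IgG replicate 3 against nondraining IgG replicate 2.

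Among values above 100, the ranges of all kinds of library pair overlapped. For a pair of libraries, the number of sgRNAs above 100 in both was divided by the number expected from the product of their shares. The ratio had a median of 1.30 (range 1.28 to 1.51) in the 6 pairs of a draining and a nondraining library with the same treatment and number. It had a median of 1.29 (range 1.18 to 1.47) in the 30 other pairs across nodes. Pairs of draining libraries had a median of 1.28 (range 1.22 to 1.38) and pairs of nondraining libraries a median of 1.36 (range 1.20 to 1.60), over 15 pairs each. These differences were not tested.

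Draining nodes held more detected sgRNAs than nondraining nodes, in each treatment and at each replicate number. In draining nodes the libraries of replicates 1, 2 and 3 held 2242, 2143 and 5302 detected sgRNAs under IgG and 2125, 2331 and 5318 under anti-PD-1. In nondraining nodes they held 1633, 1717 and 3334 under IgG and 761, 1324 and 4638 under anti-PD-1. The means were 3244 ± 1602 (SD, n = 6) and 2235 ± 1457 (SD, n = 6), a ratio of 1.45. The draining library was higher in 6 of 6 comparisons of the same treatment and number, with ratios between 1.15 and 2.79. The groups overlapped, since nondraining replicate 3 under either treatment exceeded draining replicates 1 and 2. The difference of 1009 sgRNAs did not pass an exact permutation test within treatment (two-sided p = 0.275, adjusted p = 0.377 over 8 library measures, 400 arrangements). The shared lowest value follows the replicate number, and replicate 3 was the highest in every group. With the number as a block as well, the exact permutation p was 0.03125, the smallest that 64 arrangements allow, with no adjustment over measures.

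Without replicate 3 the nodes did not overlap. The 4 draining libraries of replicates 1 and 2 held 2125 to 2331 detected sgRNAs and the 4 nondraining libraries 761 to 1717, a difference of 852 and a ratio of 1.63. The exact permutation p of 0.0556 is the smallest that these 36 arrangements allow. Counting values above 100 gave 2458 ± 1004 (SD, n = 6) in draining and 1768 ± 1117 (SD, n = 6) in nondraining nodes. The draining library was again higher in 6 of 6 comparisons (exact permutation p = 0.29), but at replicate 3 under anti-PD-1 the ratio was then 1.03, with 3780 against 3687 sgRNAs. Spleen libraries of the same screen had 75.8% to 95.4% of the sgRNAs detected, and the cells taken on the day of transfer at least 99.9%. Draining libraries had 19.97% to 49.98% and nondraining libraries 7.15% to 43.6%.

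**Figure D2:**
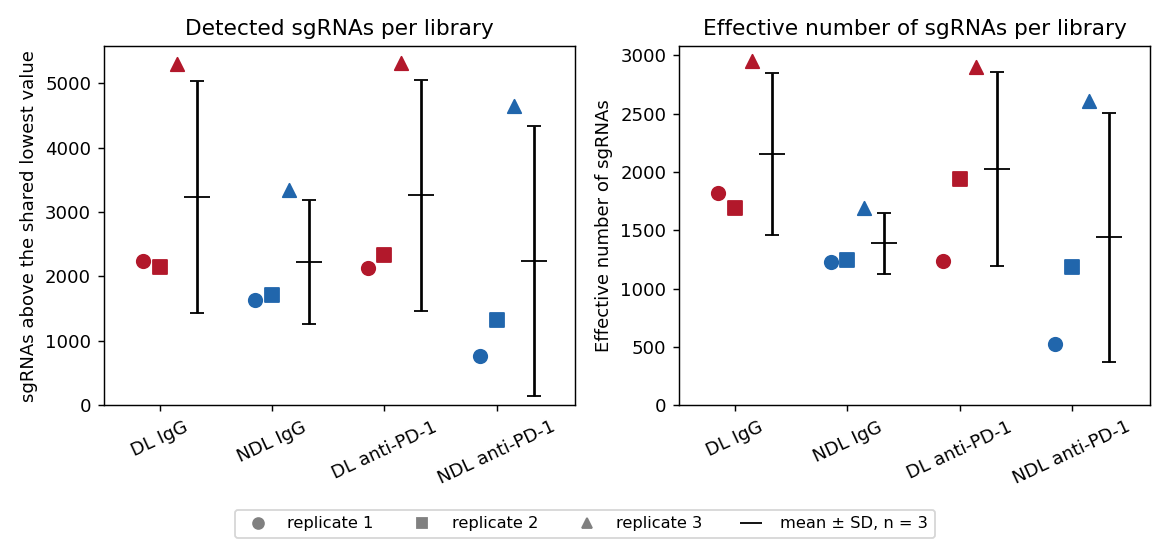
Detected sgRNAs (left) and the effective number of sgRNAs (right) for each of the 12 libraries; DL is draining, NDL is nondraining. Symbols mark the replicate number, and the horizontal bar with whiskers is the mean ± SD of 3 libraries. Replicate 3 is the highest in every group, and at each number the draining library lies above the nondraining library of the same treatment.

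Treatment did not separate the libraries within a node. Draining nodes had a mean of 3229 ± 1796 (SD, n = 3) detected sgRNAs under IgG and 3258 ± 1787 under anti-PD-1. Nondraining nodes had means of 2228 ± 959 and 2241 ± 2095. The spread was wider in nondraining anti-PD-1, from 761 to 4638 sgRNAs, than in any other group.

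The nontargeting sgRNAs, which cut no gene, followed the same pattern. Of 250, the draining libraries held 51 to 126 (mean 76.2) and the nondraining libraries 13 to 118 (mean 51.8), and the draining library was higher in 6 of 6 comparisons (exact permutation p = 0.285). As a share, 30.5% of nontargeting and 30.5% of gene-targeting sgRNAs were detected in draining nodes, and 20.7% and 21.0% in nondraining nodes. Draining libraries had at least 1 detected sgRNA for 1573 ± 289 (SD, n = 6) of the 2078 genes and nondraining libraries for 1260 ± 468. At least 3 of the 5 sgRNAs were detected for 132 to 1075 genes in draining and for 11 to 833 genes in nondraining libraries. The signal of single genes in a nondraining library therefore rested on 1 or 2 sgRNAs for most genes that had any.

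The summed signal differed little, and it was spread over more sgRNAs in draining nodes. It ranged from about 2690300 to 3277070 in draining and from about 2743010 to 4130050 in nondraining libraries (exact permutation p = 0.69). The authors had scaled the values by the nontargeting sgRNAs, so this sum is no measure of recovered cells or reads. The effective number of sgRNAs, the count of equally abundant sgRNAs that would give the same diversity, was 2089 ± 690 (SD, n = 6) in draining and 1414 ± 696 in nondraining nodes (exact permutation p = 0.155, or 0.03125 with the replicate number as a block). It was higher in draining in 6 of 6 comparisons of the same treatment and number. Without nondraining anti-PD-1 replicate 3, the nondraining library with the highest effective number, the difference was 915 and the exact permutation p was 0.025. Leaving out any other single library gave an exact permutation p from 0.11 to 0.28. The 10 leading sgRNAs held 2.05% to 3.59% of the signal of a draining library and 2.91% to 6.71% of that of a nondraining library. The means were 2.86% and 4.40%, a difference of -1.54 percentage points that passed the exact permutation test before (p = 0.03) but not after adjustment over 8 measures (adjusted p = 0.24), and not with the replicate number as a block (p = 0.0625). With replicates 1 and 2 only it was -0.83 (exact permutation p = 0.222). It also missed 0.05 in the exact permutation test without draining IgG replicate 1 or 3 (p = 0.08 each) and without nondraining anti-PD-1 replicate 1 or 3 (p = 0.06 each).

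Single sgRNAs reached larger shares in nondraining nodes of replicate 3. An sgRNA against Slc1a5, the neutral amino acid transporter that carries glutamine, made up 2.79% of the signal of nondraining anti-PD-1 replicate 3. One against Cyb5rl, a cytochrome b5 reductase-like gene, made up 2.31% of nondraining IgG replicate 3 and also led nondraining anti-PD-1 replicate 2 with 0.683%. No draining library had a leading sgRNA above 1.04%, the share of one against Gstm5, a glutathione S-transferase, in draining anti-PD-1 replicate 3. One against Cpt1a, which commits long-chain fatty acids to mitochondrial oxidation, led replicate 2 under IgG in both nodes, with 0.829% in draining and 1.01% in nondraining. The other leading sgRNAs targeted Mpo, Inmt, Ip6k2 and Slc15a4 in draining and Gsta1 and Agpat3 in nondraining libraries. The genes of these leading sgRNAs differed in how many of their sgRNAs were detected. Over the 30 that 5 sgRNAs in 6 libraries allow, Cyb5rl had 21 in draining and 14 in nondraining nodes, and Ip6k2 had 18 and 11. Slc1a5 had 15 and 9, Gsta1 had 9 and 6, and Cpt1a had 8 and 8, or 9 and 6 at values above 100.

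Few sgRNAs recurred across libraries. Of the 10390 gene-targeting sgRNAs, 2239 (21.5%) were detected in no draining library and 3526 (33.9%) in no nondraining library. All 6 draining libraries held 66 of them, and all 6 nondraining libraries 9. At values above 100 these counts were 23 and 5. An sgRNA against Ip6k2, an inositol hexakisphosphate kinase, was the only one detected in all 12 libraries, and it was above 100 in each. Of the 250 nontargeting sgRNAs, a much smaller set, none was detected in all 6 libraries of either node. At least 4 of the 6 draining libraries held 13.2% of gene-targeting and 14% of nontargeting sgRNAs. For nondraining libraries these shares were 4.62% and 3.2%.

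Abundance before transfer went with detection in both nodes. The sgRNAs were ranked and divided into 5 classes of 2128 by their mean level in the 3 libraries of the day of transfer. From the lowest to the highest class, the median share detected went from 11.1% to 36.8% over draining libraries and from 7.50% to 28.0% over nondraining libraries. Across the 2078 genes, detected sgRNAs in draining nodes correlated with the level at transfer (Pearson r = 0.44) and so did those in nondraining nodes (r = 0.42). Detected sgRNAs per gene in the 2 nodes correlated at r = 0.53. These are descriptions across genes that share libraries and starting abundance.

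For single genes the question was whether cells carrying sgRNAs against it were more frequent in 1 kind of node. Of the 30 possible detections per node, the median gene had 9 in draining and 6 in nondraining nodes, and 1552 genes (74.7%) had more in draining, 334 (16.1%) fewer and 192 the same number. Neither readout gave a call, on values that had been batch-corrected by the authors, which may have reduced differences between nodes. On the log2 scale, limma with treatment as a covariate called 0 of 2078 genes at an adjusted p of 0.05 (background 0% in each direction, smallest adjusted p = 0.285). At an unadjusted p under 0.05 it found 69 genes higher in draining (3.32%) and 63 lower (3.03%). For detected sgRNAs per gene, centred on the mean over all genes of a library, limma called 0 genes (smallest adjusted p = 0.307), with 94 higher (4.52%) and 90 lower (4.33%) at an unadjusted p under 0.05. The groups of 6 libraries did not overlap for 3 genes that were higher in draining (0.144% of genes) and 1 that was lower (0.0481%).

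The 10 genes with the smallest p among those higher in draining nodes had differences between 2.56 and 3.56 on the log2 scale, each with an adjusted p between 0.285 and 0.452. They had 12 to 23 detected sgRNAs of 30 in draining and 1 to 12 in nondraining libraries.

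Mgat2, which starts the second branch of a complex N-glycan, had the smallest p of all genes. Its log2 level was 2.39 to 7.36 (median 4.11) in draining libraries and -1.06 to 4.53 (median -0.19) in nondraining libraries. All 6 draining libraries lay above 2, whereas 2 nondraining libraries, anti-PD-1 replicates 2 and 3, reached 3.20 and 4.53. The difference was 3.56 (SE 0.85, adjusted p = 0.285), with 23 against 12 detected sgRNAs and 20 against 6 above 100. With the median of the 5 sgRNAs in place of the mean it was 6.75 and passed (adjusted p = 0.0433).

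B4galt4, a galactosyltransferase of glycan chains, ranged from 0.33 to 4.56 in draining and from -2.38 to 0.77 in nondraining libraries. The 2 ranges met only at nondraining IgG replicate 1, and the difference was 3.25 (SE 0.87) with 16 against 4 detected sgRNAs. Pigx, part of the enzyme that adds the first mannose of the GPI anchor, had 12 against 2 detected sgRNAs and a difference of 2.81 (SE 0.84). Hyal1, a lysosomal hyaluronidase, had 20 against 7 and a difference of 2.90 (SE 0.87).

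Hddc3, a cytosolic NADPH phosphatase, was 1 of the 3 higher genes whose groups did not overlap. Its level was 1.84 to 4.91 (median 2.47) in draining and -1.04 to 1.52 (median -0.52) in nondraining libraries. Every draining library held at least 2 of its 5 sgRNAs, and 3 of the 6 nondraining libraries held none. The difference was 2.97 (SE 0.79, adjusted p = 0.285). The other 2, named after their values were seen, were Atp8a1, a phospholipid flippase, and 4933425L06Rik. Atp8a1 had 12 detected sgRNAs in draining and 0 in nondraining libraries, with a difference of 2.36 (SE 0.78). 4933425L06Rik had 15 against 3 and a difference of 2.34 (SE 0.78).

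Dhodh, the mitochondrial step of pyrimidine synthesis, was at 0.83 to 5.37 in draining and at -1.28 to 2.83 in nondraining libraries. Nondraining IgG replicate 2, at 2.83 with 3 detected sgRNAs, was the library within the draining range. The difference was 2.64 (SE 0.82), with 17 against 7 detected sgRNAs. Idh1, the cytosolic isocitrate dehydrogenase that yields NADPH, had 13 detected sgRNAs in draining and 1 in nondraining libraries, and a difference of 2.56 (SE 0.83). Slc25a11, the mitochondrial carrier that exchanges malate for 2-oxoglutarate, had 20 against 10 and 3.16 (SE 1.0). The remaining 2 were Glyat, a mitochondrial glycine acyltransferase, with 18 against 7 and 2.99 (SE 0.96), and Oc90, a matrix protein of the inner ear, with 15 against 5 and 2.74 (SE 0.91).

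**Figure D3:**
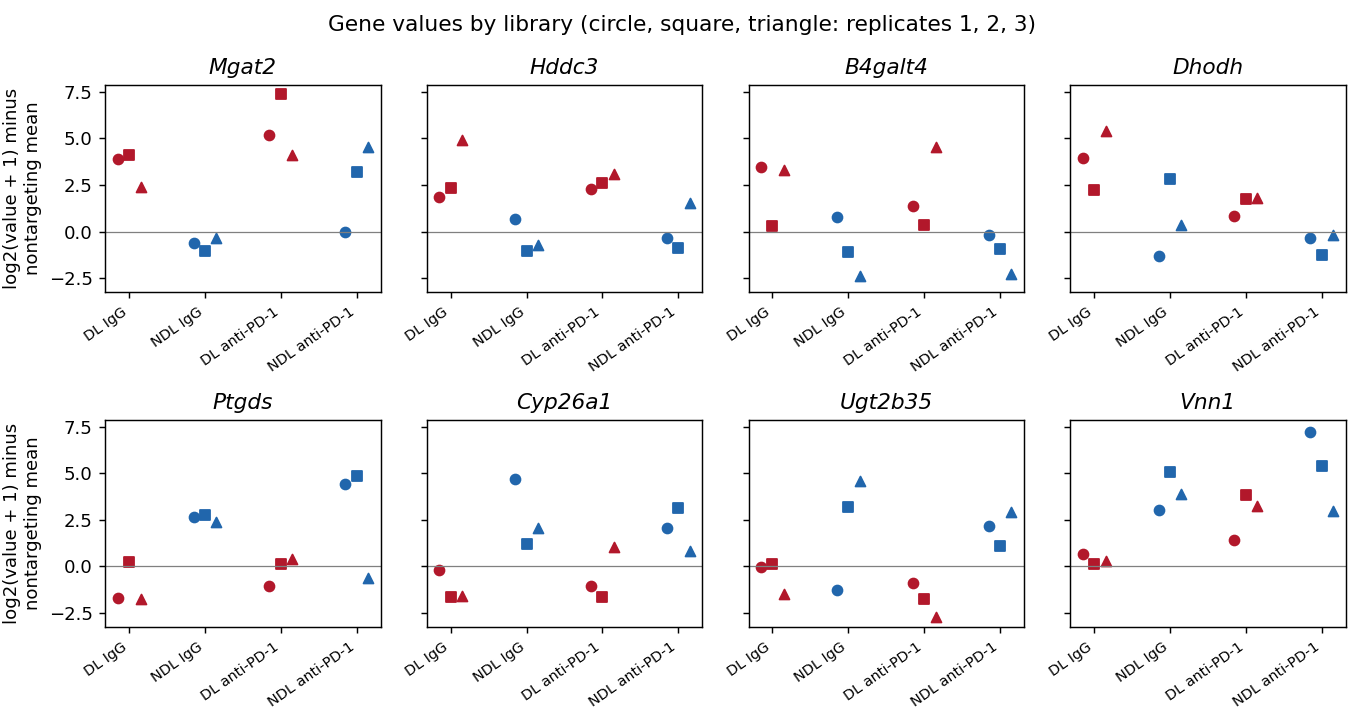
Log2(value + 1) of 8 genes, averaged over 5 sgRNAs and centred on the nontargeting mean (grey line at 0), by library; DL is draining and NDL nondraining, and circle, square and triangle are replicates 1, 2 and 3. Hddc3 is the gene shown whose draining and nondraining libraries do not overlap; Mgat2 reaches 4.53 in 1 nondraining library and Ptgds is at -0.60 in 1.

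The 10 genes with the smallest p among those lower in draining nodes had differences between -3.37 and -2.60. They had 4 to 12 detected sgRNAs in draining and 11 to 18 in nondraining libraries, against the general excess of detection in draining nodes. Their adjusted p lay between 0.285 and 0.452.

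Ptgds, which makes prostaglandin D2, was at -1.72 to 0.42 (median -0.47) in draining and at -0.60 to 4.86 (median 2.70) in nondraining libraries. Only nondraining anti-PD-1 replicate 3 fell within the draining range. The difference was -3.37 (SE 0.87, adjusted p = 0.285) with 7 against 13 detected sgRNAs, and without that library it was -4.18 and passed (adjusted p = 0.0225). Cyp26a1, which breaks down retinoic acid, had 7 against 14 detected sgRNAs and a difference of -3.17 (SE 0.82). Its only draining value above 0 was 1.04, in anti-PD-1 replicate 3, and its nondraining values ran from 0.80 to 4.70.

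Ugt2b35, a glucuronosyltransferase, was at -2.73 to 0.11 in draining and at -1.24 to 4.61 in nondraining libraries. The difference was -3.25 (SE 0.88, adjusted p = 0.285), with 5 against 13 detected sgRNAs, and without nondraining IgG replicate 1 it was -4.08 and passed (adjusted p = 0.0454). In that same setting limma on detected sgRNAs called Ugt2b35 and Dbh, dopamine beta-hydroxylase, the latter with 18 against 5 detected sgRNAs over all libraries (adjusted p = 0.0469 for both, Dbh named after its values were seen). Vnn1, a pantetheinase of vitamin B5 recycling, had the most nondraining detections of any gene, 18 against 12 in draining. Its level was 0.13 to 3.82 in draining and 2.96 to 7.19 in nondraining libraries, a difference of -3.00 (SE 0.82).

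Shmt1, cytosolic serine hydroxymethyltransferase of the folate cycle, had 7 against 15 detected sgRNAs and a difference of -3.18 (SE 0.95). Slc52a2, a riboflavin transporter, had 7 against 11 and -2.67 (SE 0.82). Mccc2, a subunit of the leucine-degrading methylcrotonyl-CoA carboxylase, had 8 against 14 and -2.91 (SE 0.93). Ugdh, which makes UDP-glucuronate, had 4 against 12 and -2.60 (SE 0.82). Chst2, a sulfotransferase that modifies N-acetylglucosamine, had 11 against 16 and -2.64 (SE 0.87).

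The 1 lower gene whose groups did not overlap was Rrm1, the large subunit of ribonucleotide reductase. Its level was -3.82 to -1.96 in draining and -1.86 to 0.51 in nondraining libraries (difference -1.64, SE 0.75, adjusted p = 0.744). It rested on 1 detected sgRNA in draining and 4 in nondraining libraries, so most of its values were those of a gene with none.

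The genes with the most detections were frequent in both nodes. Pik3cd, the p110 delta catalytic subunit of PI3K in lymphocytes, had 22 of 30 in draining and 17 of 30 in nondraining libraries, and was above 100 in 21 and 16. Man1b1, a mannosidase that trims N-glycans in the secretory pathway, had 22 and 16, and Cyb5rl 21 and 14. Mgat2 had 23 and 12. B3gnt2, which extends polylactosamine chains, had 17 and 16. In Pik3cd, nondraining anti-PD-1 replicate 2 was the only library without a detected sgRNA. All 5 were detected in nondraining IgG replicate 1 and in anti-PD-1 replicate 3 of both nodes. All 12 libraries held at least 2 sgRNAs of Man1b1.

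**Figure D4:**
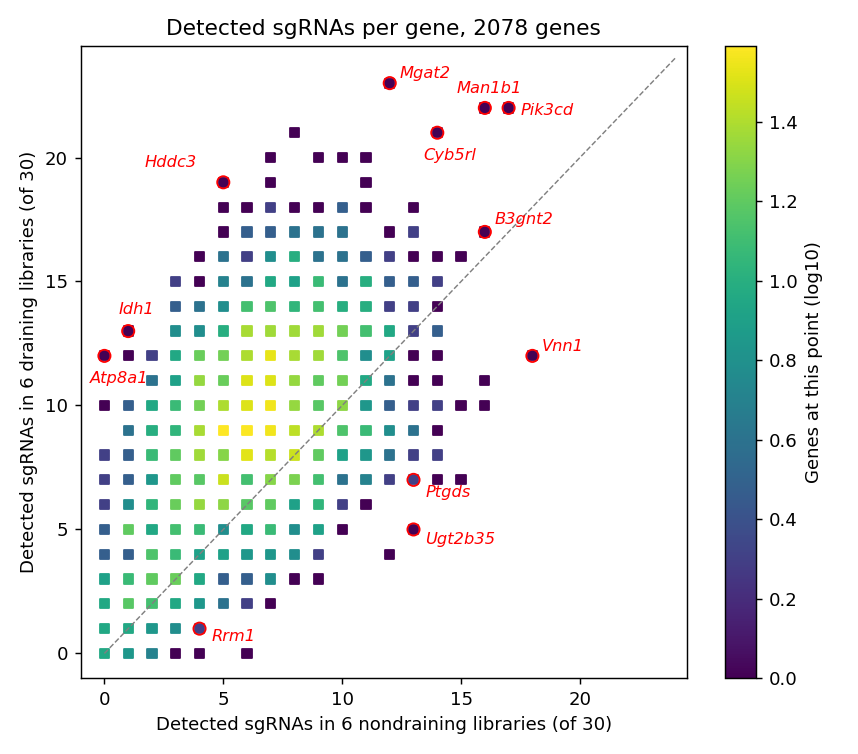
Each square is a pair of counts, the detected sgRNAs of a gene summed over 6 nondraining libraries (x axis, of 30) and over 6 draining libraries (y axis, of 30), coloured by the log10 number of genes there; the dashed line marks equal counts. Most genes lie above the line, Mgat2, Man1b1 and Pik3cd have the most draining detections of the genes marked, and Vnn1 lies furthest right.

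Of the other genes that the study names, Pik3r1, the regulatory subunit of class I PI3K, had 18 detected sgRNAs in draining and 10 in nondraining libraries. Dgkz, a diacylglycerol kinase that limits T cell receptor signalling, had 18 and 13, and at least 1 in each of the 12 libraries. Elovl1, which elongates very long chain fatty acids, had 7 and 5, below the median gene in both nodes. Slc5a12, a lactate transporter, had 9 and 7. Rpl9, a ribosomal protein, had 1 and 0, and Polr1d, a subunit of RNA polymerases I and III, had 2 and 0. None of these 6 genes passed the test between nodes (limma adjusted p from 0.783 for Pik3r1 to 0.991 for Polr1d).

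Genes of general cell growth and of complex I were detected less often than all genes in every library of both nodes. Of the 100 sgRNAs against 20 ribosomal protein genes, 8.17% were detected in draining and 5.33% in nondraining nodes, beside 30.5% and 21.0% for all genes. The share was 13.2% and 7.31% for 26 RNA polymerase subunits, 10% and 5.67% for 10 proteasome genes, and 12.5% and 4.17% for 4 aminoacyl-tRNA synthetases. It was 14.9% and 12.1% for 13 purine synthesis genes and 19.4% and 14.7% for 45 genes of mitochondrial complex I. The complex I list includes the ND genes of mitochondrial DNA. Each of these 6 lists lay below all genes in 12 of 12 libraries, also for values above 100. Their starting level at transfer was near that of all genes, with list medians of 0.11 to 0.25 against 0.22 on the log2 scale. Psmb3, Polr2f, Twistnb and Rrm2 were among the 9 genes with no detected sgRNA in any node library, as were Atp6v0c, Nup93 and Slc35a1.

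No gene of these 6 lists passed the test between nodes. Unadjusted p lay under 0.05 for Psmd6 in the proteasome list (difference -1.69) and for 2 higher and 5 lower genes of complex I. Over all genes 3.32% were higher and 3.03% lower at that threshold. The extremes of complex I were ND1 at 2.66 (16 against 5 detected sgRNAs) and Ndufc1 at -1.95 (6 against 9). ND1 and the other ND genes of this list belong to mitochondrial DNA, and whether their sgRNAs cut it was not tested. The list medians were -0.62 for ribosomal protein, -0.53 for purine synthesis and -0.41 for RNA polymerase genes, beside -0.02 for all genes. The value for ribosomal proteins was close to the -0.63 that the centring gives a gene with no detected sgRNA.

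GPI anchor synthesis, class I PI3K and N-glycan trimming and branching had the highest detected shares of the 18 lists in both nodes. The 26 GPI anchor genes had 44.9% detected in draining and 30% in nondraining nodes, above all genes in 12 of 12 libraries and in 11 at values above 100. Class I PI3K, with 8 genes, had 41.7% and 28.8%, above all genes in 11 libraries and in 10 at values above 100. N-glycan trimming and branching, with 18 genes, had 38.9% and 23.9%, above all genes in 10 libraries and in 8. The list medians of the starting level at transfer were 0.35 for GPI anchor, 0.24 for PI3K and 0.25 for N-glycan genes, against 0.22 for all genes. Between nodes, 4 GPI anchor genes and 3 N-glycan genes were higher at an unadjusted p under 0.05, none was lower, and no gene passed adjustment, beside 3.32% of all genes higher and 3.03% lower. The median difference was 0.73 for GPI anchor genes, of which 20 of 26 were above 0, and 0.48 for N-glycan genes, of which 11 of 18 were, beside 1024 of 2078 among all genes. At the low ends were Pigyl, with 9 detected sgRNAs in draining and 13 in nondraining libraries, and Ganab, glucosidase II, with 1 and 3. In the PI3K list, Pik3r5, the adaptor of p110 gamma, had 10 and 1, and Pik3cb had 7 and 9.

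**Figure D5:**
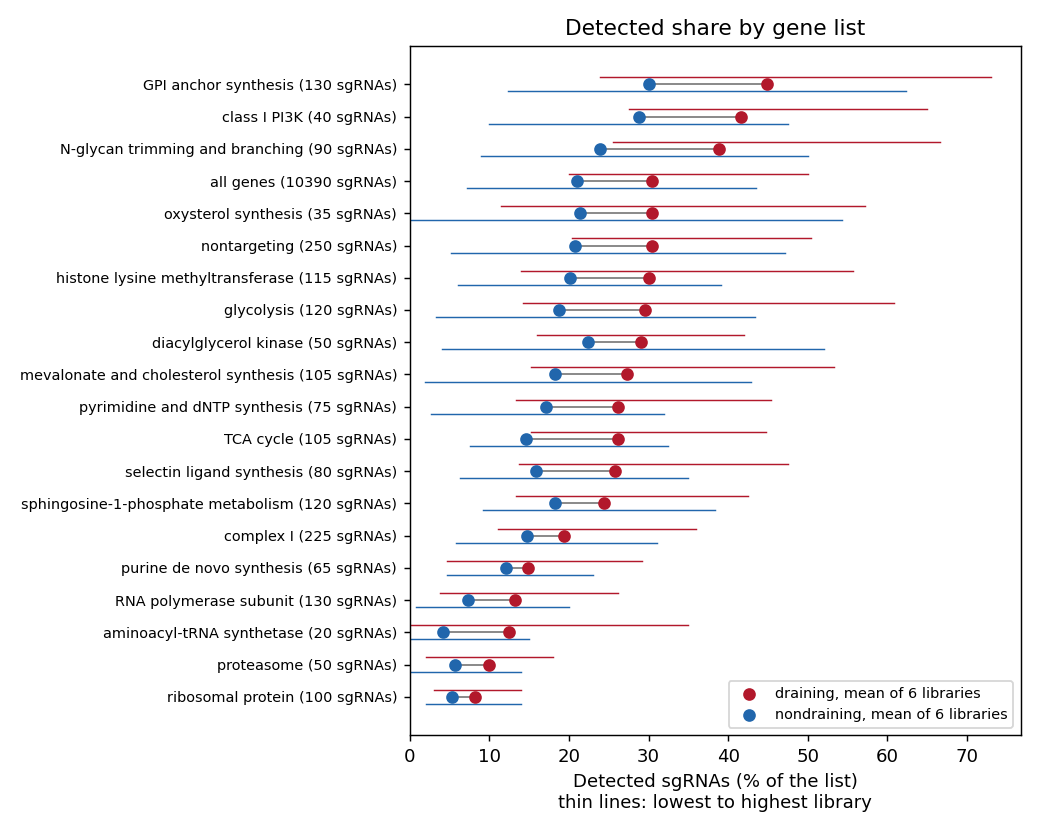
Detected sgRNAs as a percentage of the sgRNAs of each of 18 gene lists, all genes and the nontargeting sgRNAs; points are means over 6 draining (red) and 6 nondraining (blue) libraries, and thin lines run from the lowest to the highest library. Draining means exceed nondraining means in every list, and ribosomal protein genes are lowest at 8.17% and 5.33%.

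The lists tied to node entry and exit held no gene past the test. Only the transferred T cells carried knockouts, so ligands and gradients made by recipient cells were not probed. Selectin ligand synthesis, with 16 genes, had 25.8% and 15.8% detected, and its median difference was 0.19. Fut7, the fucosyltransferase that completes sialyl Lewis x, was at 0.41 to 5.89 in draining and at -0.89 to 2.75 in nondraining libraries. It was higher in draining in 6 of 6 comparisons of the same treatment and number, with 19 against 7 detected sgRNAs (difference 2.62, SE 0.88, limma adjusted p = 0.452). Slc35a2, the Golgi transporter of UDP-galactose, had 0 and 2 detected sgRNAs. Sphingosine-1-phosphate metabolism, with 24 genes, had 24.4% and 18.2% detected and a median difference of -0.10. Its extremes were Cers2, a ceramide synthase, with 10 and 3 detected sgRNAs, and Asah2, the neutral ceramidase, with 9 and 13 (difference -2.28, SE 0.88, limma adjusted p = 0.600).

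Oxysterols guide lymphocytes within nodes, and the 7 genes of their synthesis held both directions. The same limit holds, since oxysterols made by recipient cells were not altered. Cyp7b1, which adds the 7-alpha hydroxyl group of the guidance ligand, had 17 detected sgRNAs in draining and 10 in nondraining libraries (difference 2.22, SE 0.94). Hsd3b7, which acts after it and removes the ligand, had 4 and 8 (difference -1.91, SE 0.87). Neither passed (limma adjusted p = 0.728 and 0.744). The list as a whole had 30.5% and 21.4% detected, beside 30.5% and 21.0% for all genes.

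The remaining lists lay near all genes or below. Pyrimidine and dNTP synthesis, with 15 genes, had 26.2% and 17.1% detected, with Dhodh and Rrm1 at its extremes. Glycolysis had 29.6% and 18.8%, with Pgam2 at 15 and 9 detected sgRNAs and Pgk2, the testis form of phosphoglycerate kinase, at 4 and 9 (difference -1.69). The TCA cycle list had 26.2% and 14.6%. It also holds cytosolic enzymes, among them Idh1, which was at its high end. Mevalonate and cholesterol synthesis had 27.3% and 18.3%, with Fdps at 11 and 6 and Nsdhl at 9 and 12. Diacylglycerol kinases had 29.0% and 22.3%, with Dgkb at 11 and 6 and Dgke at 3 and 6. Histone lysine methyltransferases had 30% and 20.1%, with Nsd1 at 17 and 8 and Setdb1, an H3K9 methyltransferase, at 10 and 12 (difference -1.93). Of the 18 lists, 8 had a median difference above that of all genes. Relative to all genes, the median of GPI anchor genes stayed above (0.44 to 1.26) and those of ribosomal protein, purine synthesis and complex I genes stayed below in 25 alternatives. That of RNA polymerase genes ranged from -0.60 to 0.65, and that of class I PI3K genes from -1.68 to 1.04.

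Whether the difference between nodes depended on treatment was tested as an interaction. On the log2 scale limma called 0 of 2078 genes (0%, smallest adjusted p = 0.225), with 163 genes at an unadjusted p under 0.05. Among the genes of smallest p between nodes, Slc25a11 had an interaction p of 0.048 before and 0.626 after adjustment. Without nondraining IgG replicate 1 the test called Aldh1l1 and Extl3 (adjusted p = 0.0144 and 0.0225), and without draining anti-PD-1 replicate 1 it called Aldh1l1 alone (adjusted p = 0.0356). Both were named after their values were seen. Aldh1l1, a folate enzyme, had 9 detected sgRNAs in each node. Its group means were -1.71 in draining IgG, 2.50 in draining anti-PD-1, 2.77 in nondraining IgG and -1.07 in nondraining anti-PD-1. Over all 12 libraries, Pik3cd, Dgkz, Cyp7b1 and Asah2 were also among the 163 genes counted above, and none passed adjustment. In the same order of groups, Pik3cd had 3.94, 5.99, 6.01 and 2.40, and Dgkz had 3.74, 1.34, 1.23 and 3.40. The node difference of both genes thus changed sign with treatment. Cyp7b1 had 3.90, 2.41, -0.18 and 2.05, and Asah2 had -0.61, 0.42, -0.02 and 4.39. The differences given above for Cyp7b1 and Asah2 are averages over both treatments.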

How the data were processed

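sgRNA libraries from genomic DNA of sorted OT-I T cells were analysed from 1 processed table, for 12 lymph node libraries. Per the study's methods, MAGeCK-VISPR 0.5.3 gave read counts after 3 sequencing runs, which the authors scaled by the 250 nontargeting sgRNAs. They then used ComBat against batch effects between organs. If draining and nondraining nodes were separate batches, that step could have reduced mean differences between them before the tests here. The shared lowest values follow the replicate number, so which batches were used is unclear. The deposited values are a signal, not whole counts, so no count test was run and depth is unknown. ComBat can move low values, which bears on detection near the shared lowest value (compared within replicate number, relative tolerance 1e-09). No sgRNA sequence and no genome build was used here.

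Log2(value + 1) was averaged per gene and centred on the nontargeting mean. limma 3.58.1 in R 4.3.3 fitted the 12 libraries with node and treatment, with Benjamini-Hochberg adjustment over 2078 genes at 0.05. Library measures were compared by exact two-sided permutation within treatment (Python 3.11.15, numpy 2.4.6, pandas 2.3.3, scipy 1.17.1). Figures used matplotlib 3.10.9. Scripts were tested on simulated data. Deviations of genes did not go together in same-numbered libraries, so the fits have no replicate block; for library measures the block is given beside the result.

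Named genes are the 10 of smallest p in each direction, genes named by the study, the highest and lowest t of each of 18 lists, the 5 most detected genes and targets of leading sgRNAs. Differences are printed for the first set, for list extremes with an unadjusted p under 0.05 and for genes whose groups did not overlap. A few genes that this rule selects are not reported here. Members and lists were chosen with earlier results of these data known. Alternatives were pseudocount 10, other centring, lowest values set to 0, median of sgRNAs, sgRNAs in at least 2 libraries, all 41 libraries, library weights, a replicate block, single treatments and each library left out. Replicates 1 and 2 only, and values of 100 and less set to 0, were added after the data were seen.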

Additional observations from a re-analysis of the deposited data

How the results depend on the processing

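Among 32 genes with a printed difference, every one kept its sign in 27 alternatives. The genes were chosen by these differences in the same libraries, so their kept signs give no independent support. Calls passed for 30 of these 864 combinations, 27 of them with all 41 libraries. For draining against nondraining nodes, limma called 67 genes with all 41 libraries, 1 with the median of sgRNAs and 0 to 1 when a library was left out (1 without nondraining IgG replicate 1, 1 without nondraining anti-PD-1 replicate 3). For detected sgRNAs it called 0 to 2. For treatment it called 113 with all 41 libraries and 1 with sgRNAs detected in at least 2 libraries (Ugt2b5, named after its values were seen). For the interaction it called 100 with all 41 libraries and 0 to 2 when a library was left out. The fit to all 41 libraries takes its spread from other organs and the day of transfer as well. In it B4galt4 kept its difference of 3.25 while its SE went from 0.87 to 0.61. Its calls are therefore not taken as results between nodes or treatments. Why single calls appeared in the other alternatives was not tested. No centring moved the median difference of all genes from -0.02 to 0.61, and centring on the nontargeting median moved it to 0.50. Lists above the all-gene median numbered 8, but 5 with the median of sgRNAs and 14 with sgRNAs in at least 2 libraries.

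Same-numbered libraries of a treatment did not deviate together (correlations -0.06 to 0.04, 6 pairs). With the replicate block, the smallest exact permutation p for 6 pairs was 0.03125, reached by detected sgRNAs (1009) and the effective number (676), while the share of the 10 leading sgRNAs (-1.54) had p = 0.0625. The block called 0 genes. Leaving out each library, detected sgRNAs differed by 594 to 1490, the effective number by 498 to 915, and the share of the 10 leading by -1.83 to -1.07. With replicates 1 and 2 only, that share differed by -0.83.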

Other observations

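Anti-PD-1 and IgG were also compared over both nodes, with node as a covariate. limma called 0 of 2078 genes (smallest adjusted p = 0.0916), with 91 higher and 64 lower under anti-PD-1 at an unadjusted p under 0.05. The genes in this paragraph have the 6 smallest p and were named after their values were seen. Phyh, the peroxisomal enzyme of phytanic acid oxidation, was at -3.50 to -0.24 in the 6 IgG libraries and at 0.79 to 2.74 in the 6 anti-PD-1 libraries. It had 1 detected sgRNA of 30 under IgG and 14 under anti-PD-1, and the difference was 3.64 (SE 0.77). Cyp11a1, which starts steroid hormone synthesis from cholesterol, had 3 and 15 detected sgRNAs, with no overlap between treatments (difference 3.15, SE 0.77). Nt5c3b, a cytosolic nucleotidase, had 2 and 13, and ATP6, listed under the symbol of a mitochondrial ATP synthase subunit, had 4 and 13. Ucp3, a mitochondrial carrier, had 13 under IgG and 3 under anti-PD-1 (difference -3.21, SE 0.81). Gatm, which makes the creatine precursor guanidinoacetate, had 17 and 5 (difference -3.44, SE 0.90).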
